A study of Homo sapiens with 6 samples.

Results

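The genes for translation initiation, elongation and release factors were followed in HT29 cells, a human colorectal adenocarcinoma line, kept without histidine or without tryptophan. Members were chosen by gene symbol, with earlier results of these data known. They are the protein-coding genes named for the initiation factors eIF1 to eIF6, for the elongation factors eEF1 and eEF2 and for the release factors ETF1 and GSPT1, together with the poly(A)-binding protein genes PABPC1 and PABPC4. Kinases, inhibitors and nuclear import factors with similar names were left out, as were EIF2D and EIF1AD. The rule found 57 of 60676 listed genes. One lies on chromosome Y and was not analysed here, so values are given for 56. Of these, 54 passed the filter on low values (a minimum mean of 10 normalized counts) in each comparison, and EEF1G and EIF4E1B did not.

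Translation begins when eIF2, loaded with GTP and the initiator methionyl-tRNA, joins the small ribosomal subunit together with eIF1, eIF1A, eIF3 and eIF5. The eIF4F complex (eIF4E on the cap, the scaffold eIF4G and the helicase eIF4A) brings the mRNA, and eIF5B joins the large subunit. eEF1A then delivers aminoacyl-tRNAs, eEF2 moves the ribosome along, eIF5A helps it past difficult stretches, and eRF1 and eRF3 (ETF1 and GSPT1) end the chain. When an amino acid is missing, uncharged tRNA activates the kinase GCN2, whose phosphorylation of eIF2 alpha blocks the exchange factor eIF2B and slows initiation. mTORC1, which senses amino acids by another route, controls eIF4E through the 4E-binding proteins.

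The untreated group received control medium, the Hdepl group medium without histidine and the Wdepl group medium without tryptophan, each for 48 h and with 2 libraries. In the study, tryptophan shortage served as the control for responses to amino acid stress in general. The histidine-free medium was an RPMI formulation and the tryptophan-free medium a DMEM F-12 formulation, both with dialysed serum. For its proteomics cultures the paper names a full RPMI medium as control. The base of the control medium for the RNA-seq is not given in the sources used here, so the missing amino acid and the base medium cannot be told apart. The labels do not say whether the libraries of a group came from separate cultures, so p-values measure only the spread between these samples.

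The libraries held 46390819 to 64388876 reads on genes. Of 9 markers of intestinal epithelium all were detected in every library, with a summed level of 407432 to 566381 normalized counts, although GPA33 was low (2.71 to 77.9). KRT8 made up most of this sum in Hdepl libraries, and single markers moved apart: KRT20 rose 3.33-fold after histidine and 5.22-fold after tryptophan depletion, while CDX2 and LGALS4 fell 2.59-fold and 2.96-fold after histidine depletion and GPA33 went from 77.9 and 75.1 normalized counts to 2.71 and 10.1. After tryptophan depletion GPA33 was lower too (77.4 and 74.3 to 35.3 and 27.0). The part of these shifts in the results below was not tested. The 8 markers of blood, stromal and endothelial cells summed to 81.3 to 127.9, with COL1A2 at 0 in every library. Among these low counts VWF was higher after histidine depletion (7.57 and 3.95 to 42.5 and 40.5), while PECAM1 (47.6 and 36.6 to 8.13 and 9.12) and COL1A1 (66.0 and 69.2 to 27.1 and 35.5) were lower, and their part in the results was not tested. The members took 3.46% and 3.57% of the reads in untreated cells, 3.50% and 3.52% in Hdepl and 3.94% and 3.89% in Wdepl cells. EEF1A1 alone took 1.24% and 1.29%, 1.19% and 1.20%, and 1.80% and 1.76%. All levels are relative to the other mRNAs of a library, so fewer cells and less RNA per cell cannot be told apart.

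To ask how the mRNAs of this machinery responded, each depletion was compared with untreated cells and the depletions with each other (limma on log2(normalized count + 1), Benjamini-Hochberg adjusted over all genes tested, two-sided, threshold 0.05). A log2 value below is a difference on that scale. Levels per library below are normalized counts with all 6 libraries scaled together. The values of single markers above keep the scaling of their comparison.

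After histidine depletion most translation factors rose, by modest amounts. Of 54 members tested, 36 rose (66.7%, against 39.1% of all 18288 genes tested) and 12 fell (22.2%, against 38.2%), while 6 did not pass the threshold. The members' median log2 difference was 0.34, against 0.010 over all genes. Changes of at least 2-fold were few: 7 members reached one (13.0%, against a background of 32.5%), 6 of them upward (against 16.4% of all genes) and 1 downward (against 16.1%). The members' median absolute log2 difference was 0.43 against 0.67. In either direction 88.9% of the members were called, against 77.3% of all genes. With quantile normalization in place of the deposited scaling the median was 0.15 and 3 members passed 2-fold.

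Tryptophan depletion gave no shared direction. Here 21 members rose (38.9%, against 36.1% of 17960 genes), 24 fell (44.4%, against 34.8%) and 9 did not pass, with a median of -0.053 against 0.013. No member reached a 2-fold change (1 did with quantile normalization), where 20.5% of all genes did, 10.0% upward and 10.4% downward. The highest value was 0.99 (EEF1A2) and the lowest -0.77 (EIF3B). In either direction 83.3% were called, against 70.8% of all genes. With quantile normalization 17 members rose and 29 fell, with a median of -0.15.

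Set directly against each other, 34 members were higher in Hdepl than in Wdepl cells (63.0%, against 38.7% of 18264 genes), 15 were lower (27.8%, against 38.0%) and 5 did not pass, with a median of 0.34 against 0.011. At least 2-fold differences were found in 12 members (22.2%, against 31.7%), 10 of them higher (against 16.0% of all genes) and 2 lower (against 15.8%) after histidine depletion. In either direction 90.7% were called, against 76.7%. With quantile normalization the median of this comparison was 0.22. This comparison uses no untreated library for its difference, whereas both comparisons with untreated cells share the same controls. Opposite calls in those 2 comparisons together with an at least 2-fold direct difference were found for 9 members (16.7%), against 11.2% of 17413 genes tested in all 3 comparisons.

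**Figure D1:**
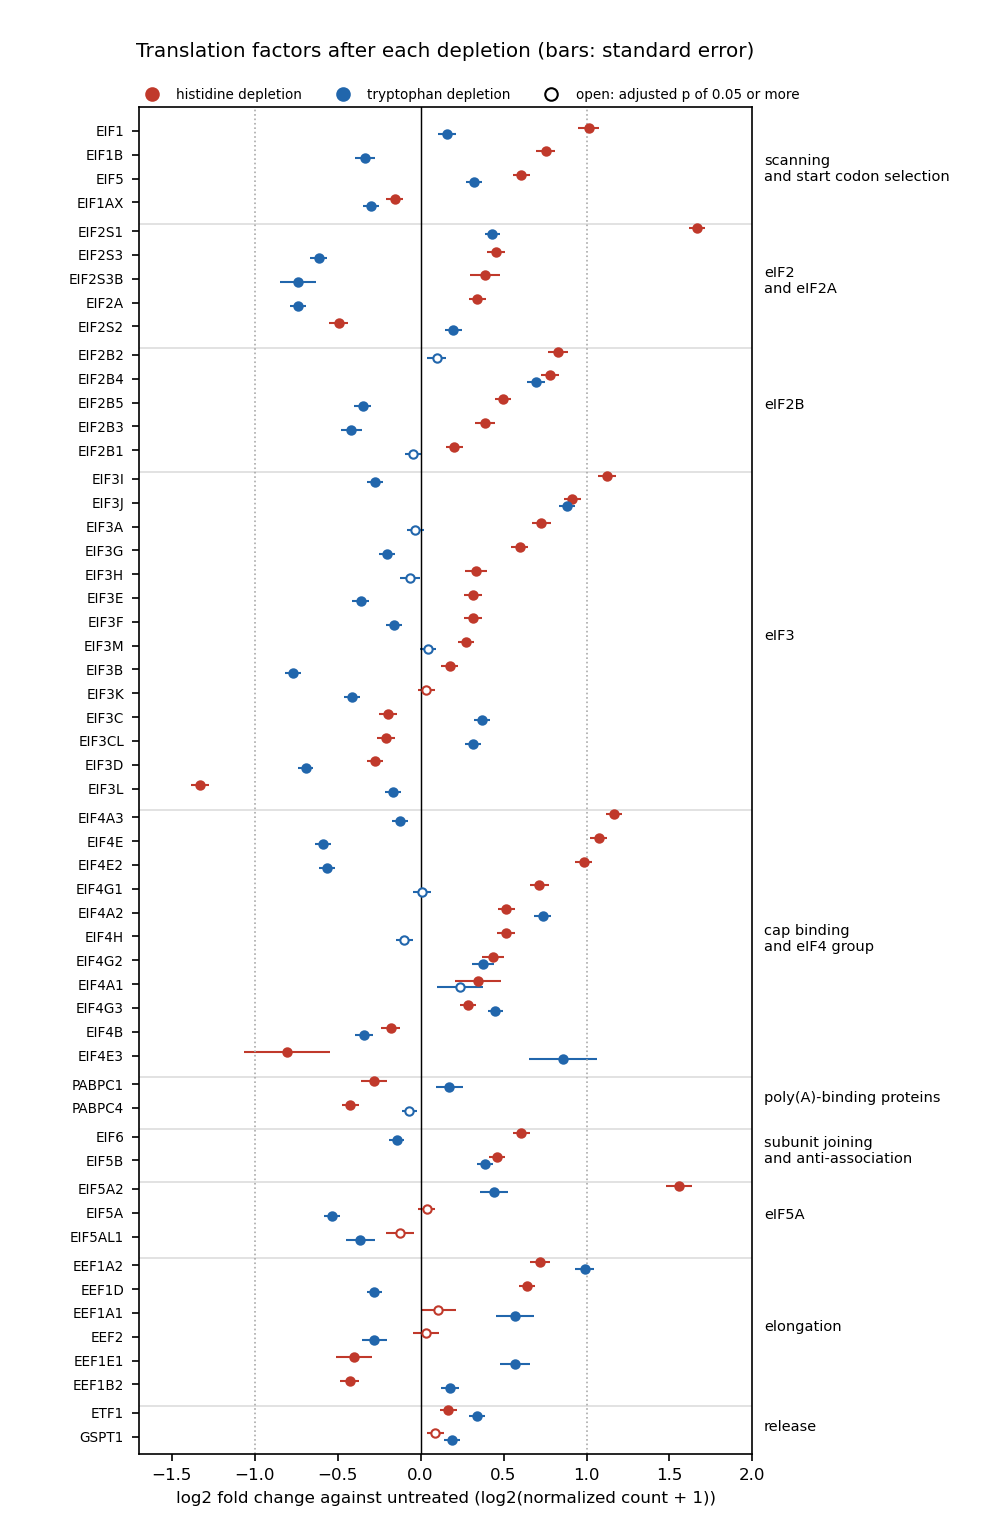
Log2 fold change against untreated cells (x axis, log2(normalized count + 1) scale) for each of the 54 tested members, by role (y axis), after histidine depletion (red) and tryptophan depletion (blue). Bars are standard errors and open points did not pass the threshold. The red points lie mostly to the right, with EIF2S1 and EIF5A2 farthest right at 1.67 and 1.56 and EIF3L farthest left at -1.33, and no blue point passes 1 in either direction.

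The factors that guide scanning and start codon choice differed in size of response. EIF1 (chr17:41688885-41692668), which keeps the scanning ribosome open and enforces a strict choice of AUG, stood at 33240 and 37039 normalized counts in untreated, 70720 and 69995 in Hdepl and 39062 and 39759 in Wdepl libraries. Both Hdepl libraries lay far above the other 4. The log2 difference was 1.01 after histidine depletion (standard error 0.062, adjusted p = 2.46e-13) and 0.16 after tryptophan depletion (adjusted p = 0.00595). The latter call was lost without Wdepl library 1 or 2 (adjusted p = 0.172 and 0.289), the value fell to 0.082 without untreated library 1, and its sign turned to -0.041 with quantile normalization.

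EIF1B, a close paralog of EIF1, had 1344 and 1409 normalized counts in untreated, 2325 and 2292 in Hdepl and 1158 and 1042 in Wdepl libraries. It rose by 0.75 after histidine depletion (adjusted p = 1.46e-11) and fell by 0.33 after tryptophan depletion (adjusted p = 4.7e-07), and the groups did not overlap. EIF1AX, which codes for eIF1A, was the scanning factor with the lowest value after histidine depletion: 15203 and 16077 in untreated, 13769 and 14107 in Hdepl and 12741 and 12804 in Wdepl libraries. Its log2 differences were -0.16 (adjusted p = 0.00814) and -0.30 (adjusted p = 1.12e-08). The first was lost without Hdepl library 1 or 2 (adjusted p = 0.197 and 0.117). EIF5, the GTPase-activating protein of eIF2, rose in both comparisons, by 0.61 and 0.32.

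The 3 subunits of eIF2 went different ways. EIF2S1 (chr14:67360328-67386516) codes for the alpha subunit that GCN2 phosphorylates, and its mRNA had the largest rise of all members: 4209 and 4079 normalized counts in untreated, 13161 and 12960 in Hdepl and 5550 and 5699 in Wdepl libraries. That is 3.17-fold after histidine depletion (log2 1.67, standard error 0.049, adjusted p = 1.69e-19) and 1.35-fold after tryptophan depletion (log2 0.43, adjusted p = 2.79e-15). The direct log2 difference between the depletions was 1.22 (adjusted p = 1.21e-14).

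EIF2S2, the beta subunit, moved the other way after histidine depletion. It had 27731 and 30486 normalized counts in untreated, 20518 and 20510 in Hdepl and 33291 and 33739 in Wdepl libraries, with no overlap between groups. The log2 differences were -0.49 (adjusted p = 2.05e-08) and 0.20 (adjusted p = 0.000458), the latter lost without Wdepl library 1 or 2 (adjusted p = 0.0805 and 0.141) and 0.13 without untreated library 1. With quantile normalization it was 0.035 (adjusted p = 0.219). Per kb of exons, EIF2S2 was 13.7 and 15.6 times the level of EIF2S1 in untreated libraries, 3.24 and 3.29 times in Hdepl and 12.5 and 12.3 times in Wdepl libraries.

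EIF2S3 (chrX:24054946-24078810), the GTP-binding gamma subunit, had 26179 and 27588 normalized counts in untreated, 36505 and 36671 in Hdepl and 17598 and 17672 in Wdepl libraries. It rose by 0.45 after histidine depletion (adjusted p = 6.15e-08) and fell by 0.62 after tryptophan depletion (adjusted p = 2.09e-23). EIF2S3B, an intron-poor copy on chromosome 12, showed a like pattern at 331 and 339, 426 and 448, and 186 and 218 normalized counts (log2 0.39 and -0.74). The copies are nearly identical, so reads can be split between them and EIF2S3B is uncertain. EIF2A, a separate protein that can deliver initiator tRNA to some mRNAs, had 11624 and 12414, 15360 and 14895, and 7433 and 7044, with log2 differences of 0.34 (adjusted p = 2.25e-06) and -0.74 (adjusted p = 1.52e-31).

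All 5 eIF2B subunit genes, which encode the exchange factor that phosphorylated eIF2 inhibits, rose after histidine depletion (where 39.1% of all genes did), by 0.20 to 0.83. EIF2B2, the beta subunit, rose most, from 1250 and 1347 to 2313 and 2270 normalized counts (adjusted p = 4.38e-12), and had 1369 and 1421 in Wdepl libraries. EIF2B1, the alpha subunit, rose least, from 2729 and 2723 to 3118 and 3122 (adjusted p = 0.00106). After tryptophan depletion 1 of the 5 rose, 2 fell and 2 did not pass, where 36.1% and 34.8% of all genes rose and fell. EIF2B1 was at 2663 and 2653 there (log2 -0.044, adjusted p = 0.439). The Wdepl value of EIF2B2 was 0.097 (adjusted p = 0.135), and it passed the threshold without untreated library 2 (0.15, adjusted p = 0.0147) and with quantile normalization (0.16, adjusted p = 0.0130), and was 0.043 without untreated library 1 and 0.064 without Wdepl library 2 (adjusted p = 0.513 and 0.538).

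**Figure D2:**
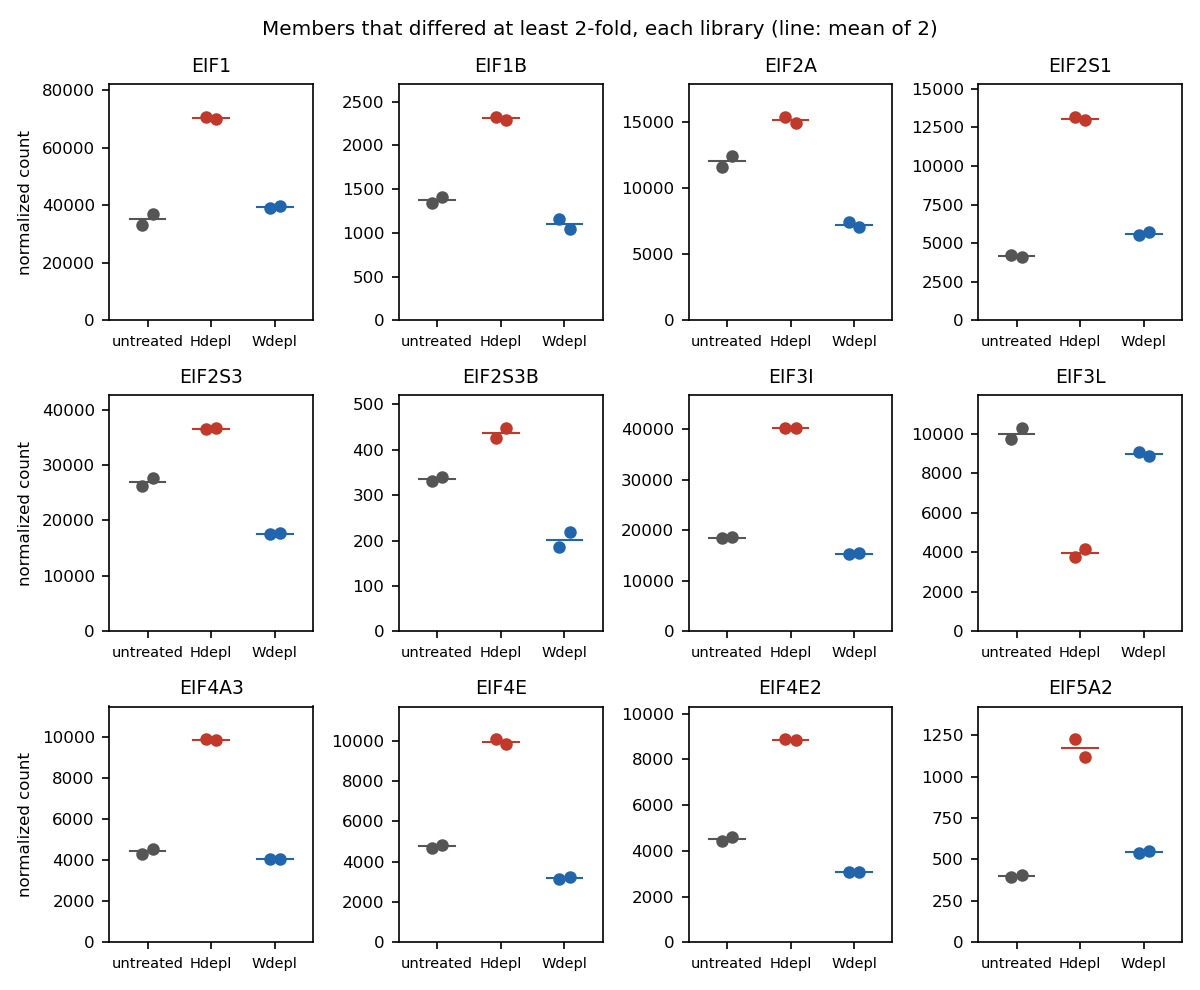
Normalized count (y axis, linear from 0, all 6 libraries scaled together) in each library of the untreated, Hdepl and Wdepl groups for 12 members that differed at least 2-fold in a comparison and had a mean of 100 or more. Points are libraries and lines are the mean of 2. In each panel the points of a group lie close together, and the Hdepl points are highest except for EIF3L, where they are lowest.

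The eIF3 complex, the scaffold that holds the small subunit, mRNA and eIF4G together, did not respond as a unit. After histidine depletion 9 of its 14 genes rose, 4 fell and 1 did not pass (39.1% and 38.2% of all genes rose and fell). After tryptophan depletion 3 rose, 8 fell and 3 did not pass (36.1% and 34.8% of all genes). EIF3I (chr1:32221077-32245397), a WD-repeat subunit, had 18413 and 18776 normalized counts in untreated, 40288 and 40236 in Hdepl and 15396 and 15454 in Wdepl libraries. This was a 2.18-fold rise after histidine depletion (log2 1.12, standard error 0.053, adjusted p = 1.34e-15) beside a fall by 0.28 after tryptophan depletion (adjusted p = 1.32e-07).

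EIF3L (chr22:37848868-37889407), a peripheral subunit, fell while most of its partners rose. It had 9740 and 10302 normalized counts in untreated, 3771 and 4151 in Hdepl and 9072 and 8880 in Wdepl libraries. The fall was 2.52-fold after histidine depletion (log2 -1.33, standard error 0.054, adjusted p = 7.14e-17). The smaller log2 difference after tryptophan depletion (-0.17, adjusted p = 0.000945) was lost without Wdepl library 1 or 2 (adjusted p = 0.0630 and 0.101). In the annotation 41.1% of the exonic bases of EIF3L are shared with another gene on the same strand, which was listed at 54.2 to 79.6 normalized counts, and the part of this overlap in the result was not tested. Per kb of exons, EIF3I was 0.85 and 0.82 times the level of EIF3L in untreated libraries, 4.82 and 4.37 times in Hdepl and 0.77 and 0.78 times in Wdepl libraries.

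Among the other eIF3 genes, EIF3J, the loosely bound subunit that acts at the decoding centre, rose by similar amounts after each depletion (0.91 and 0.88). Its direct difference was 0.014 (standard error 0.041, adjusted p = 0.768), -0.0078 in edgeR, and -0.14 with quantile normalization, where it was called lower in Hdepl cells (adjusted p = 0.000552). EIF3B and EIF3D, the latter able to bind the cap of some mRNAs, had the lowest values after tryptophan depletion (-0.77 and -0.69). EIF3B rose by 0.17 after histidine depletion, a call lost without Hdepl library 1 or 2 (adjusted p = 0.181 and 0.139) and of opposite sign with quantile normalization (-0.057). EIF3C and its near-identical copy EIF3CL were nearly level with each other in raw reads and moved alike (-0.20 and -0.21, then 0.37 and 0.31), but reads may be split between them. These 5 genes were picked after their values were seen. Of the rest, EIF3A, the largest subunit, rose by 0.73 after histidine depletion (34508 and 36178 to 58566 and 57809 normalized counts), EIF3G, which binds RNA, rose by 0.60, and EIF3E, EIF3F, EIF3H and EIF3M rose by 0.27 to 0.33. The call of EIF3H there was lost without Hdepl library 1 or 2 (adjusted p = 0.0612 and 0.0815), and those of EIF3E and EIF3M with quantile normalization (0.030 and 0.020, adjusted p = 0.320 and 0.536). After tryptophan depletion EIF3E, EIF3F, EIF3G and EIF3K fell by 0.16 to 0.41 (EIF3G was at -0.13 without untreated library 2). There EIF3F was lost without Wdepl library 1 or 2 (adjusted p = 0.118 and 0.163), and EIF3G without Wdepl library 2 (adjusted p = 0.0675).

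**Figure D3:**
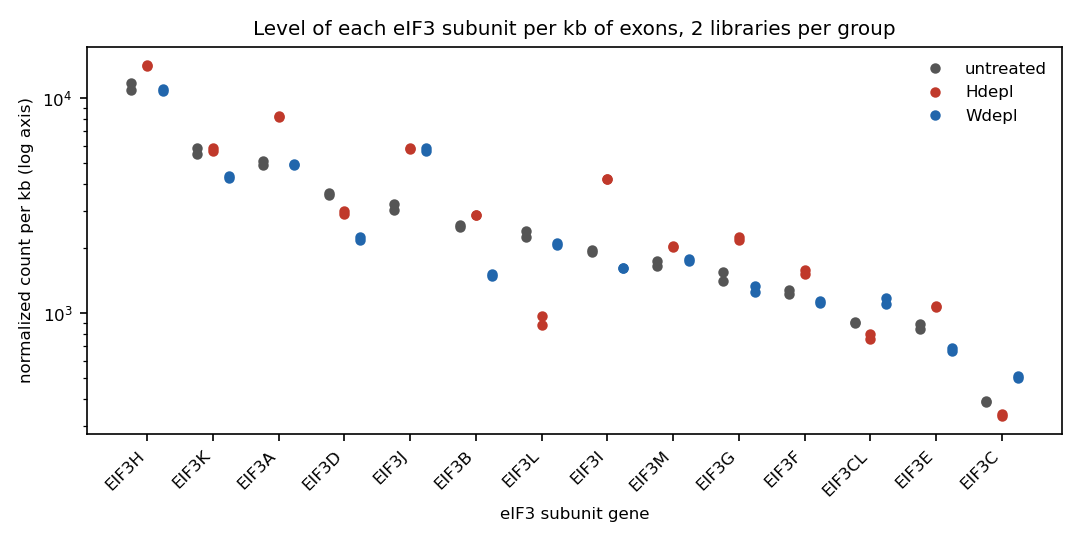
Level of each eIF3 gene as normalized count per kb of annotated exons (y axis, log scale) in 2 libraries each of untreated (grey), Hdepl (red) and Wdepl (blue) cells, ordered by the untreated level. EIF3H is highest, EIF3C lowest, and the red points of EIF3I lie above and those of EIF3L below the other groups. The union of exons is 37761 bases for EIF3E and 2798 for EIF3K, so rarely used exons lower some levels.

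In the cap-binding and eIF4 group 9 of 11 tested genes rose after histidine depletion and 2 fell, where 39.1% and 38.2% of all genes did. After tryptophan depletion 4 rose, 4 fell and 3 did not pass, near the 36.1% and 34.8% of all genes. EIF4E (chr4:98879276-98929133), the cap-binding protein and rate-limiting part of eIF4F, had 4680 and 4843 normalized counts in untreated, 10079 and 9828 in Hdepl and 3144 and 3231 in Wdepl libraries. It rose 2.10-fold without histidine (log2 1.07, adjusted p = 9.45e-16) and fell by 0.59 without tryptophan (adjusted p = 9e-23). The direct difference was 3.12-fold (log2 1.64, standard error 0.040, adjusted p = 4.18e-16), the largest of the members with at least 100 normalized counts.

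EIF4E2, a cap-binding homolog that represses translation of its targets, followed the same order at 4417 and 4613, 8892 and 8846, and 3066 and 3069 normalized counts. Its log2 differences were 0.98 (adjusted p = 5.33e-15) and -0.56 (adjusted p = 1.56e-21). EIF4E per kb stayed at 2.37 to 2.62 times EIF4E2 in all 6 libraries. EIF4E3, the third member of this family, was scarce and moved the other way, with 49.2 and 46.7 normalized counts in untreated, 30.7 and 23.4 in Hdepl and 88.6 and 87.9 in Wdepl libraries. Its log2 differences were -0.81 (adjusted p = 0.00706, lost without Hdepl library 2, where it was -0.61 with an adjusted p of 0.0674) and 0.86 (adjusted p = 9.51e-05). The direct one was -1.68 (adjusted p = 1.92e-06). EIF4E1B was listed at 0 in every library, which by counting error alone allows up to 3 reads.

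EIF4G1, the main eIF4G scaffold, had 40305 and 41741 normalized counts in untreated, 66534 and 67435 in Hdepl and 41101 and 41828 in Wdepl libraries. It rose by 0.72 after histidine depletion (adjusted p = 6.02e-11). The value after tryptophan depletion was 0.0081 (standard error 0.054, adjusted p = 0.901), which turned to -0.0016 in DESeq2, -0.011 without Wdepl library 2 and -0.017 without untreated library 1. With quantile normalization it was called lower (-0.19, adjusted p = 2.09e-05).

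Among the helicases, EIF4A3 (chr17:80134369-80147151), which belongs to the exon junction complex rather than to eIF4F, had 4317 and 4534 normalized counts in untreated, 9898 and 9840 in Hdepl and 4065 and 4083 in Wdepl libraries. It rose by 1.17 after histidine depletion (standard error 0.050, adjusted p = 2.12e-16) and was 0.13 lower after tryptophan depletion (adjusted p = 0.0139, lost without Wdepl library 1 or 2, at 0.192 and 0.127). EIF4A2, an eIF4F helicase, rose in both: 15172 and 15328, 22177 and 21221, then 25125 and 25909 (log2 0.52 and 0.73, adjusted p = 2.15e-09 and 7.45e-30). EIF4A2 per kb was 3.31 and 3.19 times EIF4A3 in untreated, 2.11 and 2.03 times in Hdepl and 5.83 and 5.98 times in Wdepl libraries.

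EIF4A1, the other eIF4F helicase, was listed at only 149 and 126, 178 and 169, and 158 and 168 normalized counts. It shares 47.4% of its exonic bases with a readthrough gene on the same strand (listed at 1.99 to 18.3) and has 13 named pseudogenes. Their part in this low level was not tested. Its log2 difference after histidine depletion was 0.35 (adjusted p = 0.0264), lost without Hdepl library 1 (adjusted p = 0.119) or untreated library 2 (adjusted p = 0.178) and in DESeq2 (adjusted p = 0.170). After tryptophan depletion it was 0.24 (adjusted p = 0.121), and it passed without untreated library 1 (0.35, adjusted p = 0.0335) and was 0.12 without untreated library 2 (adjusted p = 0.483).

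EIF4B, which stimulates the helicase, was lower in both depletions, with 43475 and 45301 normalized counts in untreated, 38425 and 39411 in Hdepl and 35752 and 34782 in Wdepl libraries. The log2 differences were -0.18 (adjusted p = 0.00619) and -0.34 (adjusted p = 1.11e-08). The first was lost without Hdepl library 1 or 2 (adjusted p = 0.271 and 0.190). The other 3 genes of the group rose after histidine depletion: EIF4G2, an eIF4G homolog that lacks the eIF4E site, by 0.43, EIF4G3, a second scaffold, by 0.29 (0.0064 and no longer past the threshold with quantile normalization), and EIF4H, a helper of the helicase, by 0.51. EIF4G2 and EIF4G3 also rose after tryptophan depletion (0.38 and 0.45), where EIF4H had a value of -0.098 (adjusted p = 0.0704, but past the threshold in edgeR, in DESeq2, with the replicate block, with quantile normalization and without untreated library 1, at adjusted p = 0.00491, 0.00974, 0.0400, 3.72e-05 and 1.07e-05, and -0.056 without untreated library 2, adjusted p = 0.0955).

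Both poly(A)-binding protein genes, whose products circularise the mRNA through eIF4G, fell after histidine depletion (where 38.2% of all genes did). PABPC1, which has 13 named pseudogenes whose part was not tested, had 196074 and 207276 normalized counts in untreated libraries. It had 162857 and 167194 in Hdepl and 228355 and 228464 in Wdepl libraries, without overlap. Its log2 differences were -0.28 (adjusted p = 0.00212, lost without Hdepl library 1 or 2, at 0.337 and 0.284) and 0.17 (adjusted p = 0.0459). The latter was lost without Wdepl library 1 or 2 (adjusted p = 0.494 and 0.525) and with a pseudocount of 8, a minimum mean of 50 or no trend (0.0644 to 0.0677), and it was 0 with quantile normalization. PABPC4 had 9385 and 9598, 6852 and 7210, and 9059 and 9152. It fell by 0.42 after histidine depletion (adjusted p = 3.78e-08), and after tryptophan depletion its value was -0.067 (adjusted p = 0.19, but 0.0315 in edgeR, 0.000873 with quantile normalization and 0.0236 without untreated library 1).

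EIF6, which keeps ribosomal subunits apart, and EIF5B, which joins them, both rose after histidine depletion (where 39.1% of all genes did). EIF6 had 8746 and 9143 normalized counts in untreated, 13232 and 13863 in Hdepl and 8044 and 8229 in Wdepl libraries (log2 0.61, adjusted p = 8.16e-11, then -0.14, adjusted p = 0.00408). The second was lost without Wdepl library 1 or 2 (adjusted p = 0.204 and 0.0748). EIF5B had 7449 and 7601, 10419 and 10163, and 9759 and 10039, which is higher after either depletion (0.46 and 0.39, adjusted p = 7.5e-09 and 2.56e-13). Its direct difference was 0.056 (adjusted p = 0.193), and 0.036 without Wdepl library 1. With quantile normalization EIF5B was called lower in Hdepl cells (-0.11, adjusted p = 0.00563).

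The 2 forms of eIF5A, the factor modified with hypusine, differed. EIF5A2 (chr3:170888418-170908644), the form found in few tissues, had 393 and 405 normalized counts in untreated, 1226 and 1117 in Hdepl and 540 and 552 in Wdepl libraries. It rose 2.95-fold without histidine (log2 1.56, standard error 0.077, adjusted p = 3.07e-15) and 1.36-fold without tryptophan (adjusted p = 1.32e-06). EIF5A, the common form, had 20759 and 21419, 21130 and 21846, and 14626 and 14682. Its untreated and Hdepl libraries overlapped (log2 0.036, adjusted p = 0.537, but called lower at -0.21 with quantile normalization, adjusted p = 0.000114), and it fell by 0.53 without tryptophan (adjusted p = 6.41e-20). With 1 library left out, the value of EIF5A after histidine depletion was 0.011 to 0.061.

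Per kb, EIF5A was 108.9 and 109.2 times EIF5A2 in untreated, 35.6 and 40.4 times in Hdepl and 55.9 and 54.9 times in Wdepl libraries. EIF5AL1, a near-copy of EIF5A whose reads may be split with it, had 483 and 474, 424 and 449, and 375 and 373. Its log2 difference was -0.13 after histidine depletion (adjusted p = 0.185, and 0.10 with quantile normalization) and -0.36 after tryptophan depletion (adjusted p = 0.000117).

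The elongation factors included the most abundant members per kb. By its symbol EEF1E1, which codes for a scaffold protein of the synthetase complex, is counted in this group. After tryptophan depletion 4 of 6 rose and 2 fell, where 36.1% and 34.8% of all genes did. After histidine depletion 2 rose, 2 fell and 2 did not pass, near the 39.1% and 38.2% of all genes. EEF1A1 (chr6:73489308-73525587), the main carrier of aminoacyl-tRNA, had 629083 and 672952 normalized counts in untreated, 690759 and 702398 in Hdepl and 979094 and 961337 in Wdepl libraries. Per kb of exons it ranked first of the members. After tryptophan depletion it rose by 0.57 (standard error 0.117, adjusted p = 7.1e-06). That call was lost without Wdepl library 1 or 2 (adjusted p = 0.193 and 0.179, at 0.56 and 0.58), when the lone library is taken to vary like the untreated pair, and quantile normalization set the value to 0.

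After histidine depletion the value of EEF1A1 was 0.11 (adjusted p = 0.365). It passed in edgeR (adjusted p = 0.0146), in DESeq2 (adjusted p = 0.0200) and without untreated library 2 (0.16, adjusted p = 0.000421), and was 0.056 without untreated library 1 (adjusted p = 0.121). EEF1A1 has 49 named pseudogenes, so its reads are uncertain. EEF1A2, the form best known from muscle and neurons, rose in both, from 1155 and 1145 to 1801 and 1973 and to 2294 and 2296 (log2 0.72 and 0.99, adjusted p = 1.26e-10 and 2.65e-36). EEF1A1 per kb was 261 and 282 times EEF1A2 in untreated, 184 and 171 times in Hdepl and 205 and 201 times in Wdepl libraries.

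EEF2, the translocase, had 167735 and 186855 normalized counts in untreated, 175942 and 184274 in Hdepl and 148464 and 144873 in Wdepl libraries. The Hdepl libraries lay within the untreated range (log2 0.033, adjusted p = 0.712, -0.098 with quantile normalization, -0.047 without untreated library 1, and past the threshold at 0.11 without untreated library 2, adjusted p = 0.00784). It fell by 0.28 after tryptophan depletion (adjusted p = 0.000474), a call lost without Wdepl library 1 or 2 (adjusted p = 0.199 and 0.241). The direct difference was 0.30 (adjusted p = 0.000157), and 0.16 with quantile normalization (adjusted p = 0.0715).

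EEF1B2, an exchange factor subunit of eEF1, had 35186 and 37807 normalized counts in untreated, 26404 and 27498 in Hdepl and 41796 and 41256 in Wdepl libraries. It fell by 0.43 after histidine depletion (adjusted p = 2.57e-07). The rise after tryptophan depletion (0.18, adjusted p = 0.00195) was lost without Wdepl library 1 or 2 (adjusted p = 0.184 and 0.168) and turned to -0.038 with quantile normalization. EEF1D, a further exchange factor subunit, moved the other way (6800 and 6695, 10590 and 10322, and 5658 and 5522), with a rise by 0.64 and a fall by 0.28 (adjusted p = 1.6e-11 and 4.65e-08). In the annotation 34.0% of its exonic bases lie opposite another gene. EEF1G, another subunit, was listed at 0 in every library. In the annotation 99.7% of its exonic bases are shared with a readthrough gene on the same strand, itself listed at 73.6 to 116.6, so these zeros do not show that the gene was silent.

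The release factors moved little. ETF1, which reads the stop codons, had 13259 and 14117 normalized counts in untreated, 15197 and 15299 in Hdepl and 17293 and 17537 in Wdepl libraries. Its log2 differences were 0.17 (adjusted p = 0.00565, lost without Hdepl library 1 or 2, at 0.121 and 0.128, and called lower with quantile normalization, at -0.078 with an adjusted p of 0.0280) and 0.34 (adjusted p = 1.93e-10). GSPT1, its GTPase partner, had 15455 and 16311, 16968 and 16585, and 18054 and 18410. After histidine depletion its value was 0.088 (adjusted p = 0.123). It was called higher in edgeR (adjusted p = 0.0400) and without untreated library 2 (0.13, adjusted p = 0.00492), was 0.047 without untreated library 1 (adjusted p = 0.258), and was called lower with quantile normalization (-0.17, adjusted p = 0.000325). After tryptophan depletion it was 0.19 (adjusted p = 0.000221, lost without Wdepl library 2 at 0.103).

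What the members share in sequence was looked at in their promoters, because mRNAs that start with a C and a run of pyrimidines (5′ terminal oligopyrimidine mRNAs) are known to be translated under control of mTORC1, and because the E-box CACGTG is bound by MYC and related factors. RefSeq windows (GRCh38.p14, 250 bases before to 50 after a start) were found for 45 members. A start with C and at least 4 more pyrimidines was present in 12 of them (26.7%), against 5.14% of 27305 genes. The 27305 are all genes with a window, including genes not tested here. Of the genes tested after histidine depletion, 816 had such a start and 10868 had a window without it. The starts of 6 such genes are shown with 10 bases before them, and capitals mark the pyrimidine run that begins at the annotated start:
EEF1A1 (chr6:73521017-73521042, minus strand): cgtgaacgttCTTTTTCgcaacgggt
EEF2 (chr19:3985448-3985473, minus strand): cgtcagcgttCTCTTCCgccgtcgtc
EEF1B2 (chr2:206159885-206159910, plus strand): ctcttcgggtCCTTTTTCCTCTCTTC
EIF2S3 (chrX:24054946-24054971, plus strand): gatttccttcCTCTTTTggcaacatg
EIF2A (chr3:150546777-150546802, plus strand): cgagcggtttCTCTTTCCgggacaac
EIF4A2 (chr3:186783567-186783592, plus strand): gcgccgctgtCTTTTCagtcgggcgc

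The 12 members with such a start had a median log2 difference of 0.19 after histidine depletion, -0.31 after tryptophan depletion and 0.35 between the depletions. In the 31 tested members with a window and no such start the medians were 0.50, 0.097 and 0.55. Over all genes tested, those with such a start had medians of -0.18, -0.056 and -0.097, against 0.028, 0.017 and 0.031 without it. Of 9 tested members of a textbook list of such mRNAs, 4 rose and 3 fell after histidine depletion, 3 rose and 5 fell after tryptophan depletion, and 6 were higher and 3 lower in Hdepl than in Wdepl cells. That list is another set and includes genes without a window, such as EEF1D. Over all genes tested 39.1% rose and 38.2% fell, 36.1% rose and 34.8% fell, and 38.7% were higher and 38.0% lower. Of the 12 members with such a start, 6 rose and 3 fell, 3 rose and 8 fell, and 9 were higher and 3 lower. Of all genes with such a start 33.0% rose and 48.8% fell, 33.4% rose and 43.9% fell, and 37.4% were higher and 46.0% lower. The genes shown span both directions after tryptophan depletion, from EIF2A at -0.74 to EIF4A2 at 0.73. They include all 3 of the 12 members that rose there (EEF1A1, EEF1B2 and EIF4A2) but not all 8 that fell.

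The E-box CACGTG, which reads the same on both strands, was present in 10 of the 45 windows (22.2%), against 8.78% of genes, tested or not. Of the genes tested after histidine depletion, 1417 had an E-box and 10267 had a window without it. Windows of 30 bases around it are shown for the members that carry it and rose at least 2-fold, and for EIF1B. Capitals mark the E-box:
EIF4E (chr4:98929341-98929370, minus strand): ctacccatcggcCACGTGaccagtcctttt
EIF4E (chr4:98929188-98929217, minus strand): ggacatatccgtCACGTGgccagaagctgg
EIF4A3 (chr17:80147232-80147261, minus strand): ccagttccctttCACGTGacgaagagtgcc
EIF5A2 (chr3:170908807-170908836, minus strand): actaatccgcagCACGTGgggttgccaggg
EIF5A2 (chr3:170908782-170908811, minus strand): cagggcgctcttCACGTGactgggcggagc
EIF1B (chr3:40309641-40309670, plus strand): gcgcgggacggtCACGTGggaggggccgcg

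Of the 10 members with an E-box, 8 rose and 1 fell after histidine depletion (median 0.62, against 0.34 in the 33 tested members without one), 1 rose and 7 fell after tryptophan depletion (-0.25 against 0.16), and all 10 were higher in Hdepl than in Wdepl cells (0.74 against 0.22). Of all genes with an E-box 46.9% rose and 36.7% fell, 36.1% rose and 40.6% fell, and 49.6% were higher and 35.2% lower. All genes with an E-box had medians of 0.10, -0.043 and 0.14, against 0.0020, 0.020 and 0.0025 without one. The composite element TGATGNAA, of the kind that ATF4 binds, was searched on both strands and was in the window of 1 member (EIF4E3), against 4.46% of genes. These are matches of letters in a window and show nothing about binding.

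**Figure D4:**
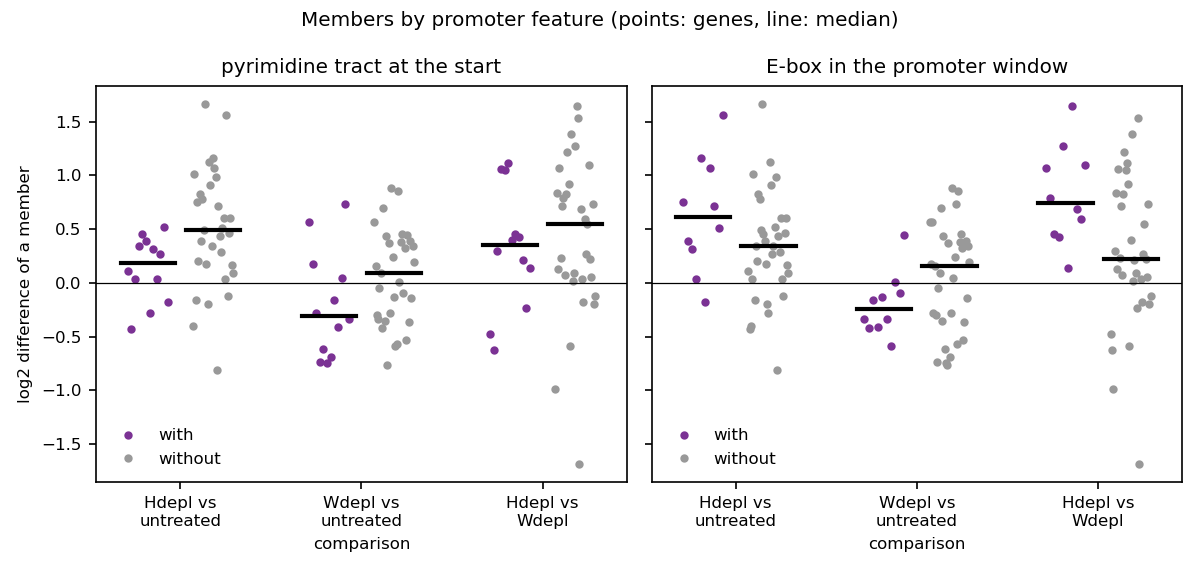
Log2 difference (y axis) of each tested member with a promoter window, with (purple) and without (grey) a pyrimidine start (left) or an E-box (right), in the 3 comparisons (x axis). Points are genes and lines are medians. All 10 purple points of the right panel lie above 0 between the depletions, and the left panel has a lower purple than grey median in each comparison.

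The coding sequences were read for the codons of the withheld amino acids. Histidine codons made up a median of 2.16% of the codons of 55 members, against 2.43% over 19592 protein-coding genes, and 37 of the 55 lay below the latter. Tryptophan codons made up 0.77% against 1.12%, with 36 of the 55 below. EIF3J had no histidine codon and EEF1E1, a scaffold protein of the synthetase complex, had the most (4.60%), followed by EIF2B2 (4.27%), EIF1 (3.54%) and EIF3I (3.38%), which all rose after histidine depletion (0.83, 1.01 and 1.12), and by EIF4E3 (3.12%), which fell (-0.81). EIF2S1, with the largest rise, had 0.95%, and EIF3J rose by 0.91. EIF4E was rich in tryptophan codons (8 of 217), while EIF1, EIF1B, EIF5A and EIF5A2 had none. EEF1E1 fell by 0.40 after histidine depletion (adjusted p = 0.00149, from 310 and 329 to 229 and 251 normalized counts, not past the threshold with quantile normalization, adjusted p = 0.0619) and rose by 0.57 after tryptophan depletion (480 and 475, adjusted p = 1.2e-08).

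Genes that act on these factors were taken from lists of kinases, inhibitors, modifying enzymes and partners, 50 genes of which 48 were tested. After histidine depletion 23 rose and 23 fell, after tryptophan depletion 25 rose and 15 fell, and between the depletions 22 were higher and 23 lower. Over all genes tested 39.1% rose and 38.2% fell, 36.1% rose and 34.8% fell, and 38.7% were higher and 38.0% lower, and the counts of the lists below stand beside these same shares. By function, rises and falls after histidine depletion numbered 1 and 2 of 4 eIF4E-binding genes, 2 and 0 of 2 hypusine enzymes, 3 and 3 of 6 recycling and rescue factors, 4 and 5 of 9 partners and paralogs of the poly(A)-binding proteins, 3 and 2 of 6 other initiation partners, and 2 and 4 of 6 genes for eEF1A methyltransferases and EEFSEC. After tryptophan depletion they were 2 and 1, 0 and 1, 3 and 2, 3 and 2, 4 and 1, and 2 and 4. Among the 6 genes for eIF2 kinases and phosphatase subunits, 3 rose and 3 fell after histidine depletion and all 6 rose after tryptophan depletion, where 36.1% of all genes did. PPP1R15A (GADD34), which directs a phosphatase to eIF2 alpha, had 7829 and 7954 normalized counts in untreated, 111972 and 108737 in Hdepl and 14770 and 15288 in Wdepl libraries (log2 3.81 and 0.92, adjusted p = 2.42e-25 and 1.26e-40). EIF2AK3 (PERK), the eIF2 kinase of the endoplasmic reticulum, was 1.07 lower in Hdepl than in Wdepl cells (adjusted p = 4.14e-11).

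EIF4EBP1, the inhibitor that competes with eIF4G for eIF4E, moved against EIF4E. It had 5413 and 6042 normalized counts in untreated, 3234 and 3480 in Hdepl and 8936 and 9017 in Wdepl libraries. It fell by 0.76 without histidine (adjusted p = 1.12e-11) and rose by 0.64 without tryptophan (adjusted p = 2.9e-26). Per kb it was 6.53 and 7.05 times EIF4E in untreated, 1.81 and 2.00 times in Hdepl and 16.1 and 15.8 times in Wdepl libraries. The direct log2 difference was -1.42 for EIF4EBP1 (adjusted p = 4.9e-14), beside 1.64 for EIF4E.

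eEF2 carries diphthamide, a modified histidine, and is inhibited by the kinase EEF2K. Of 9 genes for these and a further eEF2 modification, 5 rose and 4 fell after either depletion (39.1% and 38.2% of all genes after histidine, 36.1% and 34.8% after tryptophan depletion). Of the rises after tryptophan depletion, that of DPH6 (0.13, adjusted p = 0.0490) was lost in DESeq2, with all 6 libraries fitted together, without the trend, without the filter, and without Wdepl library 1, Wdepl library 2 or untreated library 2 (adjusted p = 0.0527 to 0.227). EEF2K fell by 1.37 after histidine depletion (2841 and 2752 to 1020 and 1134 normalized counts, adjusted p = 4.34e-16). DPH2, part of the first step of diphthamide synthesis, rose by 1.15 (adjusted p = 3.46e-16), whereas DPH5 and DPH6, of the later steps, fell by 1.60 and 1.17 (adjusted p = 3.54e-15 and 5.05e-13). After tryptophan depletion DPH2 was 0.57 lower and DPH5 0.54 higher than in untreated cells (adjusted p = 1.75e-20 and 2.46e-16).

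Of other partners, the ribosome recycling factor ABCE1 rose by 1.35 without histidine, as did DDX3X (1.41), a helicase of scanning, BZW1 (1.52), a mimic of eIF5, and EIF1AD (2.05), a protein with an eIF1A-like domain. The helicase DHX29 fell by 1.11. Without tryptophan, the ribosome rescue factor PELO (1.20), the poly(A)-binding paralog PABPC1L (1.50) and the methyltransferase EEF1AKMT3 (1.07) rose and EEF1AKMT2 fell by 1.15. The adjusted p of each of these was 1.49e-14 or lower, and each kept its side of the threshold in the fits without a library.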

How the data were processed

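RNA-seq was analysed from 6 libraries of HT29 cells, 2 for each of untreated, Hdepl and Wdepl. Per the methods of the study and its processing notes, reads from a stranded poly(A) kit with UMI adapters were aligned by the authors to GRCh38 with STAR 2.7.10a, counted with htseq-count 2.0.5 on GENCODE 38 and scaled with DESeq2. The use of UMIs, strand and reads with several alignments is not given in the sources used here. The deposited values are a signal, gene counts divided by size factors, in 2 tables that share the untreated libraries and were normalized separately, 1 per depletion. Whole reads were recovered from 100% of values (tolerance 0.001).

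In each table, genes averaging 10 normalized counts or more were tested with limma 3.58.1 (R 4.3.3, trend, empirical Bayes) on log2(normalized count + 1), which understates changes of low genes. The depletions were compared on recovered reads of all 6 libraries scaled by medians of ratios. p-values were Benjamini-Hochberg adjusted over all genes. edgeR 4.0.16 (TMM, quasi-likelihood) and DESeq2 1.42.0 on recovered reads were alternatives, beside other pseudocounts, filters and scalings and leaving out each library. A copy of the limma fit was run on simulated counts, and the other steps were not tested in this way. GENCODE 44 (GRCh38) gave coordinates, exon lengths and codons (EIF4G2, whose annotated frame does not begin with ATG, was left out of the codons), and RefSeq (GRCh38.p14) gave promoters. Exonic lengths are unions over transcripts. Named pseudogenes also number 9 for EIF4B, 8 for each of EEF1B2, EEF1D and EEF1G, and 7 for each of EIF1 and EIF2S2. Their part in the levels was not tested. The search for pyrimidine starts was added later than the other motifs.

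Members and lists were chosen with earlier results of these data known. Values per library are given for members called with at least a 2-fold change and a mean of at least 100 in the higher group, for the highest and lowest member of each role after histidine depletion, and for a fixed set of core factors. Other members with values (EIF5, EIF2B subunits other than EIF2B1 and EIF2B2, most eIF3 genes, EIF4E3, EIF4G2, EIF4G3, EIF4H, EEF1D and EEF1E1) were added after their values were seen. Genes outside the members are named where they passed the first part of this rule. Intervals and limits for counts of 0 cover counting error only. One member on chromosome Y is not reported here.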

Additional observations from a re-analysis of the deposited data

Results flagged for a closer look

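In all, 9 members were called in opposite directions after the 2 depletions, against the same untreated libraries, and differed at least 2-fold between the depletions by the direct limma test. They are 16.7% of the 54 tested members, where 11.2% of 17413 genes met the same rule. Those higher in Hdepl cells were EIF4E (direct log2 difference 1.64), EIF4E2 (1.53), EIF3I (1.38), EIF4A3 (1.28), EIF2S3B (1.11), EIF1B (1.07), EIF2A (1.06) and EIF2S3 (1.05). EIF4E3 was lower there (-1.68). The direct adjusted p-values ran from 4.18e-16 for EIF4E to 1.92e-06 for EIF4E3. The opposite calls rest in part on Wdepl values near 0 for EIF4A3 (-0.13, not past the threshold without Wdepl library 1 or 2, adjusted p = 0.192 and 0.127). The histidine call of EIF4E3 was lost without Hdepl library 2 (adjusted p = 0.0674) and in DESeq2 (adjusted p = 0.0946). The base of the medium differed along with the missing amino acid, and the 2 cannot be told apart.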

How the results depend on the processing

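Of 216 gene values (72 genes in 3 comparisons), 162 kept direction and side of the threshold in every alternative run. Quantile normalization was the setting with most changes. It gave medians over members of 0.15 (histidine), -0.15 (tryptophan) and 0.22 (direct), left 3 and 1 members past 2-fold against untreated cells, and turned the sign of EEF2 (-0.098), EIF5A (-0.21), EIF5AL1 (0.10), ETF1 (-0.078), GSPT1 (-0.17), EIF3B (-0.057) and EIF3K (-0.23) after histidine depletion, of EEF1B2 (-0.038), EIF1 (-0.041), EIF4G1 (-0.19) and EIF3M (-0.041) after tryptophan depletion, and of EIF1AX (-0.046), EIF5B (-0.11), EIF3J (-0.14) and EIF4G2 (-0.10) in the direct comparison. With the turned sign EIF5A, ETF1, GSPT1 and EIF3K (histidine), EIF4G1 (tryptophan) and EIF3J, EIF5B and EIF4G2 (direct) passed the threshold (adjusted p = 2.09e-05 to 0.0280). Values near 0 also turned for EIF3J direct (edgeR -0.0078, only the 4 depleted libraries -0.0064, without a library -0.0088 to 0.036), EIF4G1 after tryptophan depletion (DESeq2 -0.0016, without Wdepl library 2 -0.011, and -0.017 to 0.033 over all libraries left out), EEF2 and EIF3K after histidine depletion without a library (-0.047 to 0.11 and -0.013 to 0.080) and EIF3A after tryptophan depletion (-0.066 to 0.0027). The cause was not tested. Without the trend in limma, calls were lost for EIF1AX, EIF3B, EIF4B and ETF1 (histidine), EEF1B2, EIF1, EIF2S2, EIF3F, EIF3G, EIF3L, EIF4A3, EIF6, GSPT1 and PABPC1 (tryptophan) and EIF1AX and GSPT1 (direct), at adjusted p = 0.0523 to 0.153, and outside the members for EIF2AK3 (histidine), DHX29 and DPH6 (tryptophan) and EEF1AKMT2 (direct), at 0.0570 to 0.107. With a limit of at least 1 on the absolute log2 difference, 6 members were higher and 1 lower (histidine), 0 and 0 (tryptophan) and 10 and 2 (direct).

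Leaving out 1 library at a time, where the lone library of a group is assumed to vary like the others, gave 32 to 38 members higher, 8 to 12 lower, 6 to 8 past 2-fold and a median of 0.33 to 0.39 after histidine depletion. The ranges were 15 to 23, 18 to 28, 0 and -0.075 to -0.026 after tryptophan depletion, and 31 to 34, 14 to 15, 11 to 13 and 0.32 to 0.36 directly. edgeR called 38 and 12, 21 and 26, and 34 and 15, and DESeq2 36 and 11, 21 and 25, and 33 and 15. Small direct differences lost without 1 library were those of the members EIF1AX, EIF4B, EIF5AL1 and GSPT1 (adjusted p = 0.0553 to 0.123) and of EEF1AKMT2 outside them (0.0622 to 0.329). The replicate numbers did not pair the samples (correlations of deviations over 18264 genes of 0.042, 0.0020 and -0.041). With the replicate block the counts were 36 and 12, 21 and 25, and 34 and 15, and the medians were 0.34, -0.053 and 0.34. The block changed the call of 1 value, that of EIF4H after tryptophan depletion (adjusted p = 0.0400).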

Other observations

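Of 9 tested partners and paralogs of the poly(A)-binding proteins, which are no members, 3 changed in opposite directions after the depletions and differed at least 2-fold between them (11.2% of 17413 genes met the same rule). PAIP2, an inhibitor of the poly(A)-binding proteins, had 1709 and 1913 normalized counts in untreated, 3001 and 2921 in Hdepl and 1279 and 1214 in Wdepl libraries (log2 0.72 and -0.54, adjusted p = 6.55e-11 and 6.32e-16). PABPN1, the nuclear poly(A)-binding protein, rose by 0.89 after histidine depletion and fell by 0.41 after tryptophan depletion (adjusted p = 3.41e-14 and 3.69e-13). PABPC1L, a paralog best known from oocytes, moved the other way, with 6230 and 5083 normalized counts in untreated, 3106 and 2952 in Hdepl and 15465 and 16441 in Wdepl libraries (log2 -0.88 and 1.50). In the direct comparison the log2 difference of PABPC1L was -2.40 (Hdepl minus Wdepl, adjusted p = 2.03e-15), and PAIP2 and PABPN1 were 1.25 and 1.28 higher. In the annotation 39.3% of the exonic bases of PABPN1 are shared on the same strand with other annotation, and the part of this overlap was not tested.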
